A study of Mus musculus with 6 samples.

Results

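The genes described here encode the proteasome, and were chosen by name: every protein-coding gene in the count table with a symbol of the form Psm, a letter from a to g and a number. There were 48 such genes among 27179, and 46 of the 48 were among the 14855 genes with enough counts to be tested. The measurements are RNA-seq read counts from cancer-associated fibroblasts (CAFs) of mouse mammary tumors. The tumors arose in raGFP-Wnt1 mice, which carry a GFP reporter knocked into the Pdgfra gene, so that GFP marks Pdgfra-expressing cells, and a Wnt1 transgene driven in mammary epithelium by the MMTV promoter; both sorted groups share these alleles. GFP+ CAFs were sorted by surface CD34, a marker of fibroblast progenitors, into a CD34- and a CD34+ fraction. Each of 3 tumors gave 1 library of each fraction, 3 per group, and the ages of the mice are not given in the sources used here. Strains of both C57BL/6 and FVB/NJ origin were crossed to make the line, and each library is a pool of sorted cells from 1 tumor.

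The proteasome is the large protease of the cytosol and nucleus that degrades proteins tagged with ubiquitin. Its barrel, the 20S core, stacks rings of alpha subunits, which gate the entrance, around rings of beta subunits, of which Psmb5, Psmb6 and Psmb7 cut the substrate. The 19S cap holds a ring of ATPases (Psmc genes) that unfold the substrate, and non-ATPase subunits (Psmd genes) that bind ubiquitin, remove it and hold the cap together. Dedicated chaperones (Psmg genes for the core, Psmd5, Psmd9 and Psmd10 for the ATPase ring) assemble it. Interferon induces Psmb8, Psmb9 and Psmb10, which take the places of Psmb5, Psmb6 and Psmb7 to form the immunoproteasome, as well as the PA28 cap made of Psme1 and Psme2, and both favor peptides for class I antigen presentation.

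Total counts ranged from 16238059 to 86609267 per library, with the CD34+ library of tumor 1 the shallowest and that of tumor 2 the deepest. The CD34- library of tumor 3 had the fewest genes with any count, 14314, at 35310817 total counts. The other libraries had 16253 to 19220 such genes, with 16707 in the shallowest. Cd34 itself, the gene behind the sort, read 79.2, 42.0 and 102 CPM (read counts relative to the library total) in the CD34- libraries of tumors 1, 2 and 3 and 678, 563 and 1605 in the CD34+ libraries. The fibroblast markers summed to 67651 to 93742 CPM in every library, against 13.8 to 25.2 for the 10 immune markers. Most of the fibroblast sum was Col1a1, Col1a2 and Col3a1. Of the 7 fibroblast genes, 3 had values above 0 in CD34- minus CD34+ CAFs and 4 below. In limma-voom with the tumor as a block, Pdgfrb was called higher and Dcn and Lum lower (adjusted p under 0.05), where 8.57% of all genes were called. Markers of other cells were unequal between the fractions. The 8 epithelial markers summed to 63.7 to 191 CPM in CD34- and 21.5 to 158 in CD34+ CAFs, and the 7 pericyte markers to 214 to 240 and 88.2 to 189. The 6 proliferation genes, which mark no other cell type, summed to 73.5 to 135 and 115 to 380 CPM. All 6 had values below 0 in CD34- minus CD34+ CAFs. Pcna alone made up 105 of the 135 CPM in the CD34- library of tumor 3. Under the tumor block 4 were called lower, Mki67, Top2a, Mcm2 and Cdk1, where 4.25% of all genes were. The 8 endothelial markers summed to 15.0 to 46.4 CPM in CD34- and 60.5 to 127 CPM in CD34+ CAFs, but Tek alone made this gap, at 5.45 to 13.4 and 48.8 to 116 CPM; the other 7 summed to 9.52 to 33.0 and 11.5 to 33.9 CPM, and 5 of the 7 endothelial genes tested had values above 0 in CD34- minus CD34+ CAFs. The pericyte sums also hid opposite signs: 5 of the 7 genes had values above 0 in CD34- minus CD34+ CAFs and 2 below. Those 2, Kcnj8 (log2 fold change -1.96) and Abcc9 (-1.44), were lower in CD34- CAFs in 3 of 3 tumors. The part of these differences in the results below was not tested. In bulk samples, fewer cells of a type and less RNA per cell cannot be told apart.

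Together the 48 genes took up a small and similar share of both transcriptomes. Their CPM, scaled by TMM factors as all CPM values here, summed to 2014, 2686 and 2293 in the CD34- libraries of tumors 1, 2 and 3 (mean 2331 ± 338, SD, n = 3) and to 2109, 2977 and 2210 in the CD34+ libraries (2432 ± 475). The fractions overlapped, and within a tumor the CD34- sum was 0.955, 0.902 and 1.04 times the CD34+ sum. As a share of all counts the genes made up 0.190% to 0.294% per library. The 2 untested genes are the tissue-restricted forms: Psma8, the testis alpha subunit, had 2, 8 and 0 counts in CD34- and 0, 20 and 0 in CD34+ CAFs, and Psmb11, the subunit of the thymic cortex, had 1 count in all 6 libraries.

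No proteasome gene passed the test between the fractions. The comparison asks whether fibroblasts lacking CD34 express the proteasome differently from their CD34+ counterparts in the same tumors. In limma-voom with Benjamini-Hochberg adjustment over all genes, 0 of 46 genes were called at an adjusted p under 0.05, where 0.121% of all genes tested were, and the smallest adjusted p was 0.292. At an unadjusted p under 0.05 only Psmg1 was counted, 1 of 46 against 14.3% of all genes. With the tumor of origin as a block in limma-voom the fit called 1273 genes, 8.57%, and again 0 of 46; its smallest adjusted p was 0.0802, for Psma3. Under that block 6 of 46 (13%) had an unadjusted p under 0.05, Psma3, Psma4, Psmd6, Psmd12, Psmg1 and Psmg2, all with lower values in CD34- CAFs, against 23.3% of all genes in either direction. One other fit called a single gene: DESeq2 with the tumor block put Psma3 at a log2 fold change of -0.65 (adjusted p = 0.0334), where 6.02% of all genes were called lower. In edgeR 0 of 46 were called without or with the block, where 9 and 575 of all 14855 genes were.

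The estimates were tight enough to bound most of the differences. For 36 of 46 genes (78.3%) the 95% interval of the log2 fold change lay within 1 of 0, a change of less than 2-fold in either direction, against 41.9% of all genes; with the tumor block it did so for 41 of 46 (89.1%) against 50.8%. Proteasome genes were well counted, with a median standard error of 0.236 on the log2 scale against 0.322 over all genes, and varied less over the 6 libraries (median SD of log2 CPM 0.309 against 0.464). In these comparisons of intervals, errors and spread, all genes were not matched to the proteasome genes in expression level. Their median log2 fold change, CD34- minus CD34+, was -0.08, against -0.03 over all genes, and the within-tumor medians were -0.06, -0.15 and 0.06. Values below 0 were found for 30 of 46 genes (65.2%) against 52.3% of all genes. Taken per tumor, 11 genes were lower in CD34- CAFs in 3 of 3 tumors (23.9% against 23.4% of all genes) and 3 were higher in all of them, Psmb5, Psmb10 and Psmd3 (6.52% against 22.8%).

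**Figure D1:**
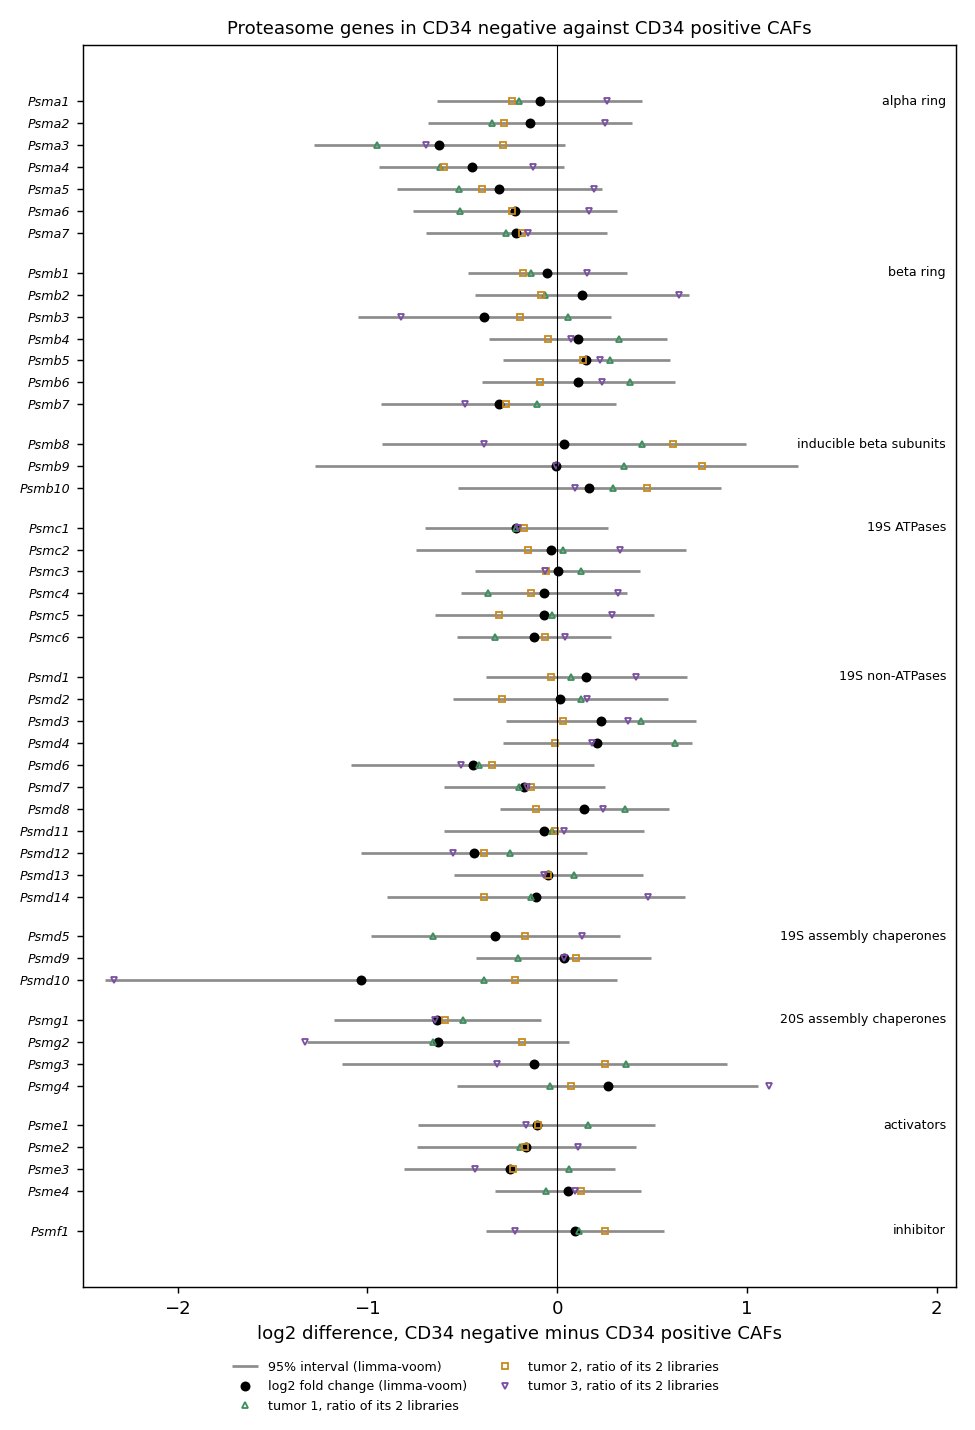
Log2 difference between CD34- and CD34+ CAFs (x axis) for the 46 proteasome genes tested, grouped by role; black points and gray bars are the limma-voom log2 fold change and its 95% interval, and open symbols the ratio of the 2 libraries of each tumor. All intervals except that of Psmg1 cross 0, and Psmd10, the lowest at -1.03, has the widest bar.

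By role, the alpha ring, which gates the core, was the most one-sided group by sign. All 7 alpha genes had values below 0, from -0.62 (Psma3) to -0.09 (Psma1), with a median of -0.22, though in tumor 3 the median was 0.17. The sum of the alpha ring was 297, 428 and 378 CPM in the CD34- libraries of tumors 1, 2 and 3 and 410.5, 537 and 373 in the CD34+ libraries, lower in tumors 1 and 2 and level in tumor 3. The beta ring did not share this: 4 of its 7 genes were above 0, its median was 0.11, and its sums were 385, 482 and 385 CPM against 363, 523 and 365. These sums describe mRNA and not assembled rings.

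Psma3 and Psma4 had the largest alpha ring values. Psma3 read 28.0, 41.5 and 20.9 CPM in CD34- and 54.2, 50.6 and 33.7 CPM in CD34+ CAFs of tumors 1, 2 and 3. It was lower in CD34- CAFs within each tumor, but its ranges overlapped, and its log2 fold change was -0.62 ± 0.29 (SE; adjusted p = 0.378 in limma-voom). Psma4 read 58.1, 81.0 and 77.3 CPM in CD34- and 89.0, 122 and 84.5 CPM in CD34+ CAFs, which did not overlap. Its log2 fold change was -0.45 ± 0.21 (adjusted p = 0.386 in limma-voom). Without tumor 3, the fit with the tumor block gave Psma4 an adjusted p of 0.0129 in limma-voom, the only call made by leaving samples out; 1 of 46 (2.17%) stands against 13% of all genes called in that fit. Only 3 proteasome genes had every CD34- library below every CD34+ library, Psma4, Psmg1 and Psmg2 (6.52% against 10% of all genes), and 0 had the reverse, against 10.4% of all genes.

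Psmg1 and Psmg2 encode the chaperones that pair to start the alpha ring, and they had the largest negative values of the genes averaging 3 or more in log2 CPM. Psmg1 read 11.7, 13.6 and 9.88 CPM in CD34- and 16.5, 20.4 and 15.5 CPM in CD34+ CAFs, with within-tumor log2 ratios of -0.50, -0.59 and -0.65. Its log2 fold change was -0.63 ± 0.24 (95% interval -1.18 to -0.09; adjusted p = 0.292 in limma-voom). Psmg2 read 13.6, 15.3 and 7.07 CPM against 21.4, 17.4 and 17.8 CPM, with ratios that were less even between tumors, -0.65, -0.19 and -1.33. Its log2 fold change was -0.63 ± 0.30 (adjusted p = 0.392 in limma-voom) and -0.35 without the CD34- library of tumor 3. The chaperones that act as the other pair, Psmg3 and Psmg4, had log2 fold changes of -0.12 ± 0.44 and 0.27 ± 0.35 at fewer counts, 32 to 346 for Psmg3. Summed over the 4 core chaperones the level was 32.9, 39.4 and 28.6 CPM in CD34- and 44.9, 47.4 and 41.5 CPM in CD34+ CAFs, the one role group whose sums did not overlap between the fractions among those with genes tested.

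The catalytic subunits of the standard core differed little. Psmb5, which carries the chymotrypsin-like activity, read 27.8, 33.3 and 30.4 CPM in CD34- and 22.8, 30.2 and 25.9 CPM in CD34+ CAFs of tumors 1, 2 and 3. It was higher in CD34- CAFs within each tumor with overlapping ranges, and its log2 fold change was 0.15 ± 0.19 (adjusted p = 0.755 in limma-voom). Psmb6, with the caspase-like activity, read 44.8, 51.8 and 42.9 CPM against 34.4, 55.1 and 36.3 CPM, a log2 fold change of 0.11 ± 0.22 (adjusted p = 0.854 in limma-voom). Psmb7, with the trypsin-like activity, read 51.9, 70.3 and 38.8 CPM against 55.8, 84.6 and 54.3 CPM and was lower in CD34- CAFs in 3 of 3 tumors. Its log2 fold change was -0.31 ± 0.27 (adjusted p = 0.645 in limma-voom), and it moved to -0.077 without the CD34- library of tumor 3, -0.080 without the CD34+ library of tumor 2, -0.52 without the CD34- library of tumor 2 and -0.036 with quality weights. For each of these 3 genes the ranges of the fractions overlapped.

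The inducible subunits varied more between libraries than the standard ones, with an SD of log2 CPM over the 6 libraries of 0.62 for Psmb8, 0.79 for Psmb9 and 0.41 for Psmb10, against 0.19 for Psmb5, 0.27 for Psmb6 and 0.39 for Psmb7. Psmb8, the counterpart of Psmb5, read 16.6, 41.5 and 16.7 CPM in CD34- and 12.1, 27.1 and 21.9 CPM in CD34+ CAFs. It was higher in CD34- CAFs in tumors 1 and 2 and lower in tumor 3. The log2 fold change was 0.04 ± 0.42 (adjusted p = 0.977 in limma-voom), and 0.32 ± 0.23 with the tumor block (adjusted p = 0.453 in limma-voom). Psmb9, the counterpart of Psmb6, had the lowest level of the 3, at 4.22, 15.4 and 6.08 CPM against 3.28, 9.05 and 6.10 CPM. Its fitted log2 fold change was -0.003 ± 0.557 without the tumor block and 0.56 ± 0.29 with it (adjusted p = 0.286 in limma-voom), so neither its sign nor its size was fixed by these 6 libraries. Psmb10, the counterpart of Psmb7, read 19.1, 34.0 and 18.98 CPM against 15.5, 24.5 and 17.7 CPM, higher in CD34- CAFs in 3 of 3 tumors. Its log2 fold change was 0.17 ± 0.30 (adjusted p = 0.836 in limma-voom), and 0.34 ± 0.19 with the block (adjusted p = 0.321 in limma-voom). For the PA28 cap, Psme1 read 38.5, 58.7 and 55.8 CPM against 34.4, 63.0 and 62.6 CPM (log2 fold change -0.11 ± 0.27) and Psme2 read 26.8, 41.2 and 44.0 CPM against 30.7, 46.4 and 40.8 CPM (-0.16 ± 0.25). The median over these 5 genes was -0.003, and 0.32 with the tumor block, with 0 called in both fits.

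**Figure D2:**
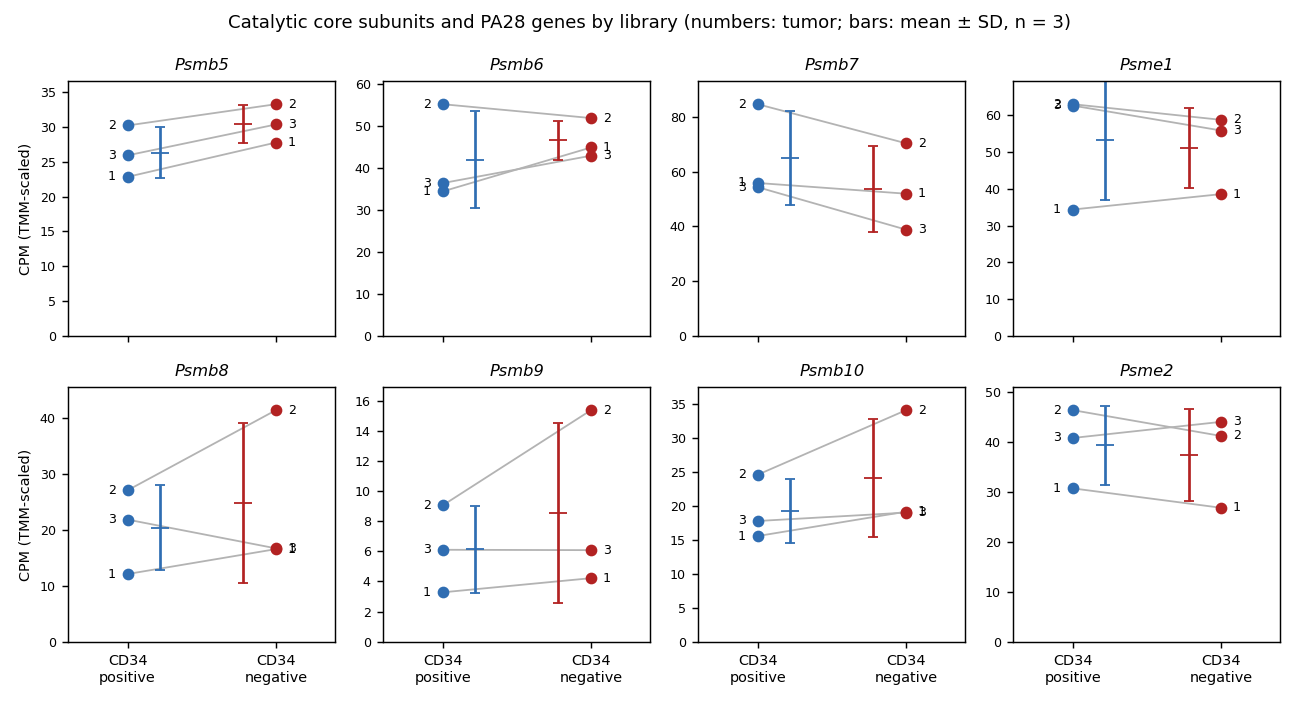
TMM-scaled CPM (y axes, each from 0) of the standard catalytic genes, their inducible counterparts and the PA28 genes in CD34+ (blue) and CD34- (red) CAFs; gray lines join the libraries of 1 tumor, numbered, and bars are the mean ± SD of 3 libraries. For Psmb8, Psmb9 and Psmb10 the CD34- library of tumor 2 is the highest point, at 41.5, 15.4 and 34.0 CPM.

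Set against the subunit it replaces, Psmb10 was the one inducible gene whose ratio separated the fractions. Ratios were taken of CPM per kilobase of counted gene length. The Psmb10 to Psmb7 ratio was 0.281, 0.369 and 0.373 in the CD34- libraries of tumors 1, 2 and 3 and 0.212, 0.221 and 0.249 in the CD34+ libraries, higher in 3 of 3 tumors with no overlap. With 3 libraries a group this separation was given no test, and 1 ratio of 3 was singled out after its values were seen. The Psmb8 to Psmb5 ratio ran from 0.378 to 0.888 and the Psmb9 to Psmb6 ratio from 0.121 to 0.381 over all 6 libraries, with overlapping fractions; the highest of each was the CD34- library of tumor 2. All 3 ratios were below 1 in every library, so per length the standard subunit had the higher mRNA level throughout.

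**Figure D3:**
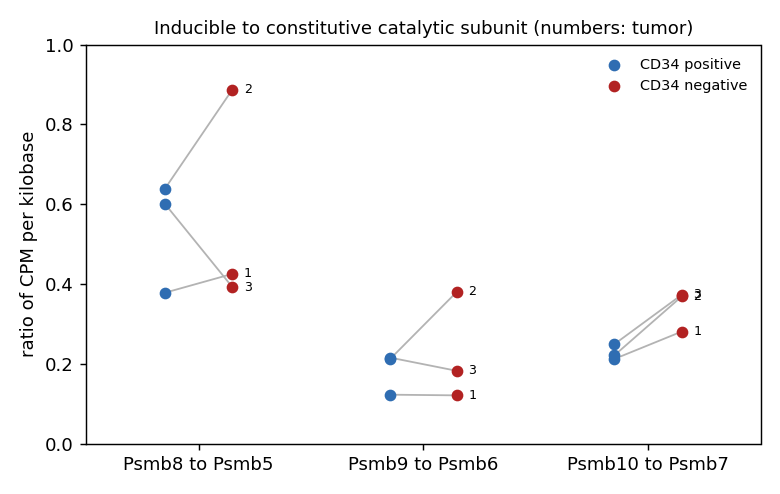
Ratio of CPM per kilobase (y axis) of each inducible catalytic subunit to the standard subunit it replaces, in CD34+ (blue) and CD34- (red) CAFs; lines join the libraries of 1 tumor, numbered. The Psmb10 to Psmb7 ratio is 0.281 to 0.373 in CD34- and 0.212 to 0.249 in CD34+ CAFs, whereas the other pairs overlap.

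The promoters of 4 genes are shown because their products exchange (Psmb5 for Psmb8), share an induced cap (Psme1) or lie in the class I region beside the peptide transporter genes (Psmb8 and Psmb9). Each runs from 250 bases before to 50 bases after the RefSeq start, 5′ to 3′ on the gene's strand, build GRCm38.p6, and capitals mark a match to 1 of 4 motifs searched on both strands. The motifs were the antioxidant response element core TGACNNNGC, bound by the Nrf factors that induce standard proteasome genes, the CCAAT box CCAAT, the interferon-stimulated response element core, GAAA and GAAA with any 2 bases between, and the gamma-activated site TTCNNNGAA. They are Psmb5 at chr14:54617946-54618245 on the minus strand, Psmb8 at chr17:34197945-34198244 on the plus strand, Psmb9 at chr17:34187281-34187580 on the minus strand and Psme1 at chr14:55578244-55578543 on the plus strand.
Psmb5: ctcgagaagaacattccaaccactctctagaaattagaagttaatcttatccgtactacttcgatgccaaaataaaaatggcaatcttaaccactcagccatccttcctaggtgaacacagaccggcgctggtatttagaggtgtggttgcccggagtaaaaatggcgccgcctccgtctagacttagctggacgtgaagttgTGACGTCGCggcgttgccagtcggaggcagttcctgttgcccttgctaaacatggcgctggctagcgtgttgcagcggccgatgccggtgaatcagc
Psmb8: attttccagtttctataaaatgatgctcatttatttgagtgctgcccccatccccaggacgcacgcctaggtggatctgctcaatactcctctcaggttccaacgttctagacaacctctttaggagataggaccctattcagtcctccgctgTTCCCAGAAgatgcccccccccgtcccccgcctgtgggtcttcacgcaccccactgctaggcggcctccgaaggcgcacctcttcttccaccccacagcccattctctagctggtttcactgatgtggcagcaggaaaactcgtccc
Psmb9: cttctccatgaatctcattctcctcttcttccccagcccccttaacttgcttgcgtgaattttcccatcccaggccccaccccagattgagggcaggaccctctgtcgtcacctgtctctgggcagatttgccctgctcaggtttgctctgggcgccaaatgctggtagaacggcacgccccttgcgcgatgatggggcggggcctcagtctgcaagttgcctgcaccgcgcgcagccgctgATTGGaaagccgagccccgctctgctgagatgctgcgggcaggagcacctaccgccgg
Psme1: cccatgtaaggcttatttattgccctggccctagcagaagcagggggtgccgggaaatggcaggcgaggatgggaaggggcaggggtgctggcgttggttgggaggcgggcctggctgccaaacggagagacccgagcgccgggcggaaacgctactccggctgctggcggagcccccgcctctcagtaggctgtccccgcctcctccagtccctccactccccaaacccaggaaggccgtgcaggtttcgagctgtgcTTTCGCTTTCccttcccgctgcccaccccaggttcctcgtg

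In these windows Psmb5 held 1 antioxidant response element core, Psmb8 1 gamma-activated site, Psmb9 1 CCAAT box read on the opposite strand and Psme1 1 interferon-stimulated response element core, also on the opposite strand. Windows were found for 40 of the 48 genes, 43 windows in all. The antioxidant core was in 6 of the 43 (14%, against 12.4% of all 32851 windows): Psmb5, Psmb6, Psmc6, Psmd9, Psmd12 and Psme4. The interferon core was in 5 (11.6% against 3.44%): Psmb3, Psmd4, Psmd9, Psme1 and Psmg4. The gamma-activated site was in 3 (6.98% against 8.30%), Psmb8, Psmd2 and Psmg1, and the CCAAT box in 14 (32.6% against 37.4%). A match is a description of letters and not evidence of binding. The Psmb9 window shares 275 bases with that of Tap1, which is read in the other direction.

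Under the tumor block Tap1 and its partners were called higher in CD34- CAFs, and Psmb9 was not called. Tap1 and Tap2 form the transporter that brings proteasome-made peptides into the endoplasmic reticulum, and Tapbp links it to class I molecules. Tap1 read 31.4, 52.9 and 45.0 CPM in CD34- and 22.2, 33.0 and 24.9 CPM in CD34+ CAFs, with a log2 fold change under the tumor block of 0.70 ± 0.16 (adjusted p = 0.0290 in limma-voom). Tap2 was at 0.69 ± 0.15 (adjusted p = 0.0227 in limma-voom) and Tapbp at 0.84 ± 0.13 (adjusted p = 0.00475 in limma-voom) under that block, each higher in CD34- CAFs in 3 of 3 tumors. Without the block their adjusted p in limma-voom were 0.359, 0.227 and 0.105. Under the block these 3 of 16 interferon and class I genes tested were called higher, against 4.32% of all genes, and 0 were called lower, against 4.25%. Without the block, 9 of the 16 had log2 fold changes above 0 and 7 below. Psmb9 at 0.56 ± 0.29 and Tap1 at 0.70 ± 0.16 were not tested against each other.

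The medians of the 19S cap were close to 0. The 6 ATPase genes ranged from -0.21 (Psmc1) to 0.003 (Psmc3) with a median of -0.07, and the 11 non-ATPase genes from -0.44 (Psmd6) to 0.23 (Psmd3) with a median of -0.05. Psmd3, a structural subunit of the lid, had the largest positive value among the genes with the same sign in every tumor. It read 59.6, 75.0 and 69.3 CPM in CD34- and 43.8, 73.4 and 53.4 CPM in CD34+ CAFs, a log2 fold change of 0.23 ± 0.22 (adjusted p = 0.667 in limma-voom). Psmd6 and Psmd12, also lid subunits, had -0.44 ± 0.28 and -0.44 ± 0.26 and were lower in CD34- CAFs in 3 of 3 tumors. Psmd14, the enzyme that removes ubiquitin at the cap, was at -0.11 ± 0.34, and Psmd4, a ubiquitin receptor, at 0.21 ± 0.22. The summed 19S subunits were 999, 1329 and 1161 CPM against 984, 1478 and 1069 CPM in tumors 1, 2 and 3.

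Among the cap's chaperones, Psmd10 (gankyrin) had the largest fold change of any proteasome gene, and 1 library set its size. It read 6.37, 11.3 and 1.60 CPM in CD34- and 8.29, 13.2 and 8.11 CPM in CD34+ CAFs, the lowest value resting on 58 counts in the CD34- library of tumor 3. The log2 fold change was -1.03 ± 0.59 (adjusted p = 0.468 in limma-voom) and -0.36 without that library. The gene overlaps Atg4a, whose counts were 136% of its own. The libraries do not mark strand, so strand could not assign reads from the overlap, which are uncertain. Psmd5 and Psmd9 had -0.32 ± 0.29 and 0.03 ± 0.20. Of the remaining caps and regulators, Psme3, the nuclear activator, was at -0.25 ± 0.24, Psme4, the large nuclear activator, at 0.06 ± 0.17 and Psmf1, an inhibitor of the core in vitro, at 0.10 ± 0.20; Psme4 overlaps Erlec1, with 124% of its counts.

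Levels between the genes were compared per kilobase of counted length. The highest means over the 6 libraries were those of the core subunits Psmb4 (104 CPM per kilobase, 82.4 to 126 over libraries) and Psmb1 (95.2, 82.7 to 115), which overlap. Psmb5 had the lowest level of the standard beta ring at 32.6 CPM per kilobase, and Psma5 and Psma3 the lowest of the alpha ring at 24.4 and 26.6. The lowest tested genes were Psmg3 (4.33), Psmf1 (5.19) and Psmd10 (5.60). Psmg3 encodes a chaperone, Psmf1 an inhibitor and Psmd10 a chaperone, none of them a lasting part of the complex.

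Most of the genes were highest in both fractions of the same tumor. In 29 of 46 genes (63%) both libraries of tumor 2 were above the other 4, against 8.78% of all genes, from every role group with genes tested except the core chaperones and the inhibitor. The median log2 CPM of the genes was 5.78 and 5.997 in the CD34- and CD34+ libraries of tumor 2 and 5.32 to 5.53 in the other 4. Psmc2, a cap ATPase, read 58.3 and 64.8 CPM in tumor 2 and 32.2 to 48.7 CPM elsewhere. Psme4, Psmf1 and Psmd9 ran the other way: over the 6 libraries their log2 CPM had correlations of -0.88, -0.51 and -0.32 with the mean of the other genes, a description of 6 libraries that share tumors. This pattern was noticed in the values and then counted.

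Whether a test between tumors called proteasome genes depended on the test and on the libraries used. In limma-voom, the F test for the tumor, with CD34 in the model, called 598 genes (4.03%) and 0 of 46 proteasome genes. The smallest adjusted p was 0.0701 for Psmc2 in limma-voom. The DESeq2 likelihood ratio test called 7 of 46 (15.2% against 10.3% of all genes): Psmb7, Psmb8, Psmb9, Psmc2, Psmd6, Psmd14 and Psme1. In edgeR 0 were called, against 1.12% of all genes. Without the CD34- library of tumor 3 the limma-voom test called 13 (28.3% against 13.7% of all genes). Without the CD34+ library of tumor 3 it called 20 (43.5% against 33.6%). Leaving out the CD34- library of tumor 1 or 2 gave 0 and 1 (0% and 2.17%, against 4.54% and 5.83%). Leaving out the CD34+ library of tumor 1 or 2 gave 3 and 1 (6.52% and 2.17%, against 6.36% and 4.93%). The count of genes with tumor 2 on top was 27 to 31 with other scalings. Beside this, the CD34+ library of tumor 2 was the deepest and had the highest sum of proliferation genes, 380 CPM. That sum was 114 CPM in the CD34- library of the same tumor. The 16 interferon and class I genes summed to 6588 and 5806 CPM in tumor 2 and 4056 to 4650 CPM elsewhere. Pdia3, Calr and Canx, at 1733, 1020 and 605 CPM, made up much of the 5806 CPM in the CD34+ library. In only 6 of the 16 genes were both tumor 2 libraries above all others. The part of these in the pattern was not tested.

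**Figure D4:**
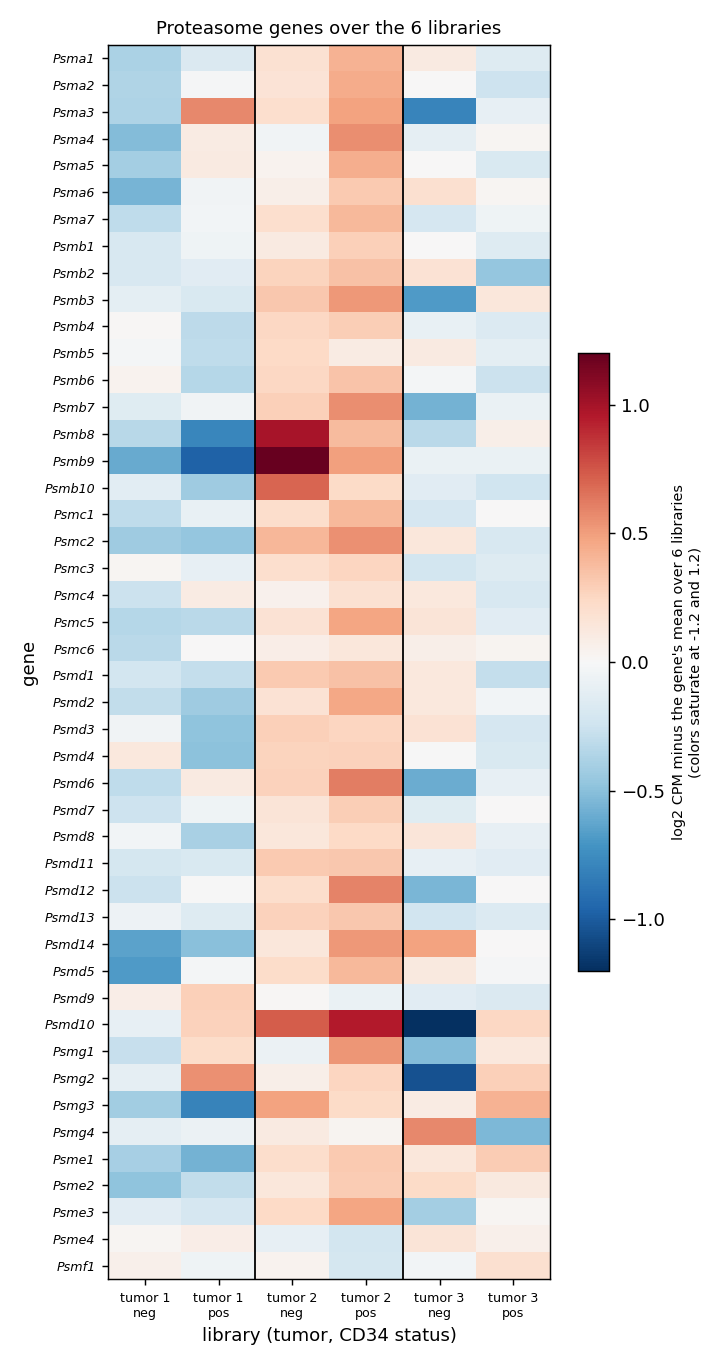
Log2 CPM of each of the 46 tested proteasome genes (rows) in each library (columns, ordered by tumor and CD34 status), minus the gene's mean over the 6 libraries; red is above and blue below that mean. Both columns of tumor 2 are red for most rows, and in 29 rows they are the highest of the 6.

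Genes that work with the proteasome but carry other names gave 0 calls without the tumor block and 1 with it, besides the class I genes above. Of 11 tested genes for further parts and assembly factors, 2 were above and 9 below 0, and 1 of the 11 was called under the block, where 8.57% of all genes were. Sem1, the smallest lid subunit, read 58.0, 66.7 and 69.8 CPM in CD34- and 94.3, 114 and 86.4 CPM in CD34+ CAFs with no overlap. Its log2 fold change was -0.60 ± 0.18 (adjusted p = 0.188 in limma-voom). Under the tumor block Sem1 was called lower, at -0.60 ± 0.14 (adjusted p = 0.0339 in limma-voom). Pomp, the chaperone that completes the core, was at -0.38 ± 0.24. Of 7 genes that control proteasome transcription and 14 for ubiquitin and delivery, 0 were called without or with the block, against 0.121% and 8.57% of all genes. Nfe2l1, the factor that raises proteasome genes when degradation is short, read 233, 281 and 310 CPM in CD34- and 222, 199 and 147 CPM in CD34+ CAFs, higher in 3 of 3 tumors at 0.56 ± 0.21 (adjusted p = 0.295 in limma-voom, and 0.0991 with the block); Pomp and Nfe2l1 were named after their values were seen.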

How the data were processed

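Both fractions were sorted by the authors from the same 3 tumors and snap frozen; libraries were made from total RNA with TruSeq RNA v2, which does not mark strand, and sequenced on a NextSeq. Reads were aligned to GRCm38/mm10 and counted per gene with featureCounts (Rsubread), and the deposited values are raw counts, 1 column per library. Strand and multi-mapping settings are not given in the sources used here. Reads shared with overlapping genes, which strand cannot separate in these libraries, or with near-identical copies are uncertain. Psma3, Psmd1 and Psme1 overlap genes with 6.41%, 3.24% and 6.00% of their counts. Pseudogenes of the family and Psme2b were not analysed here. Here, genes were kept with filterByExpr (minimum count 10), scaled with TMM and tested with limma-voom (limma 3.58.1, edgeR 4.0.16, R 4.3.3) over all genes, Benjamini-Hochberg adjusted at 0.05. The study's methods name these steps but state no model formula; no tumor term was used here except where the block is named. Fits with the tumor as a block, edgeR, DESeq2 1.42.0, other scalings, filters and left-out libraries were alternatives. The tumor numbers pair the libraries, since both fractions came from the same tumor; deviations from the group means correlated at 0.373, 0.350 and 0.219 in tumors 1, 2 and 3. Whether the 3 tumors came from 3 mice is not stated. Without the block, p-values between the fractions measure the spread between the libraries of a group and leave the pairing unused. With the block, p-values measure the spread left after differences between these tumors are removed. Scripts were tested on simulated data. Total counts of 16238059 to 86609267 gave proteasome genes 34070 to 254305 counts per library. The motifs were searched in RefSeq promoter windows.

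The genes and lists were chosen with earlier results of these data known. Genes described by library were the 6 catalytic subunits, Psme1, Psme2, any gene called in limma-voom with or without the block, and, of the genes averaging 3 or more in log2 CPM whose sign agreed in 3 of 3 tumors, the 4 furthest from 0 on either side (fewer where fewer qualified). Psmd10, Psmc2 and the other genes given outside this rule were named after their values were seen.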

Additional observations from a re-analysis of the deposited data

How the results depend on the processing

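The count of proteasome genes called between the fractions was 0 in every setting but these: it was 1 in DESeq2 with the tumor block (Psma3) and 0 to 1 when libraries or tumors were left out (Psma4, without tumor 3). Psmb9, at -0.003 in limma-voom, turned positive with the tumor as a replicate block (0.56), as a random effect (0.13), in edgeR (0.47, with replicate block 0.38), in DESeq2 (0.46, with replicate block 0.37), with quality weights (0.39) and with no low-count filter (0.022). With libraries or tumors left out, log2 fold changes ranged from -0.55 to 0.69 for Psmb9, -0.40 to 0.56 for Psmb8, -0.11 to 0.45 for Psmb10, -0.0077 to 0.38 for Psmb6, -0.33 to 0.082 for Psme1 and -0.29 to 0.067 for Psme2; the sign held over ranges of -0.88 to -0.40 for Psma3, -0.62 to -0.29 for Psma4, 0.082 to 0.29 for Psmb5, -0.52 to -0.077 for Psmb7, 0.089 to 0.45 for Psmd3 and -0.95 to -0.35 for Psmg2. The median of the inducible and PA28 genes moved to 0.32 with the block, 0.29 in edgeR, 0.28 in DESeq2 and 0.39 with quality weights, and ranged from -0.26 to 0.41 with libraries left out. Over the same omissions the median of all tested genes of the complex ranged from -0.23 to 0.042 and that of the 19S subunits from -0.19 to 0.15. Genes differing between tumors numbered 7 in the DESeq2 likelihood ratio test, where 1525 of all genes were called, and 0 to 20 with a library left out, where 686 to 5180 were; this test, the count of genes highest in tumor 2 and their alternatives were chosen after seeing the data. The replicate block changed no other call among these genes. The causes were not tested. Counts were as low as 32 for Psmg3, 53 for Psmb9 and 58 for Psmd10 in 1 library, which limits these genes.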
